A study of Mus musculus with 24 samples.

Results

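Hepatic stellate cells that received CLK8 together with transforming growth factor beta (TGFb) were compared with vehicle-treated cells across every measured gene. The comparison takes 6 of the 24 libraries of the series, namely the 3 named for CLK8 with TGFb and the 3 named for DMSO vehicle, and uses log2(FPKM + 1), where FPKM is a level that is scaled to transcript length and library size. All cells were EMS404, a stellate cell line from C57Bl6 mouse liver that was immortalized with SV40 and expresses human TLR4. The CLK8+TGFb cells received CLK8 for 24 h and then CLK8 with TGFb at 10 ng/mL for another 24 h. The vehicle group is untreated by its treatment label and DMSO by its library names. Groups with TGFb alone and with CLK8 alone, of 3 libraries each, serve below to set the combination beside its components. Their labels give TGFb at 10 ng/mL for 24 h and CLK8 for 24 h. The labels state no dose for CLK8. They also leave unstated how long cells without TGFb were cultured, so TGFb and time in culture cannot be told apart. Where the combination is set against CLK8 alone, the length of CLK8 exposure cannot be told apart from them either. The labels describe the libraries as biological triplicates of a single cell line, and p-values therefore measure the spread between cultures of that line.

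TGFb is a strong fibrogenic signal for stellate cells. It is held in the matrix by latent TGFb binding proteins, binds the receptors TGFBR2 and TGFBR1 once released, and acts through SMAD2, SMAD3 and SMAD4 on genes for matrix, protease inhibitors and contractile filaments, while SMAD7, SKIL and PMEPA1 feed back on the signal. CLOCK and BMAL1 (gene Arntl) form the activating dimer of the circadian clock, which binds E-boxes and drives the genes of its own repressors, the PER, CRY and REV-ERB proteins. CLK8 is a small molecule that binds CLOCK and disturbs its pairing with BMAL1. The comparison describes cells in which the fibrogenic signal and this clock compound were present together.

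The labelled cell type was checked against its markers. Of 15 stellate cell markers, 14 were in the table, and 8 reached 1 FPKM in every library of each of the 4 groups. Vim, an intermediate filament gene of mesenchymal cells, averaged 743 FPKM with vehicle and 895 FPKM with CLK8+TGFb, and Hand2 and Lhx2, transcription factors of stellate cells, averaged 69 and 10.7 FPKM with vehicle. Reln was at 0 in all libraries of these groups, and Des averaged 0.203 FPKM and Gfap 0.0133 FPKM with vehicle. Ngfr, Rgs5 and Hgf averaged 0.0633, 0.02 and 0.123 FPKM with vehicle, so these markers were absent or nearly so. Mesothelial markers, described below, summed to 553 to 572 FPKM with vehicle, and the portal fibroblast marker Cd34 averaged 222 FPKM. The markers alone therefore do not settle the labelled cell type. Lrat was not analysed here. Summed hepatocyte markers lay at 5.62 to 6.95 FPKM with vehicle and 1.90 to 2.17 FPKM with CLK8+TGFb, with Alb at 0 in all libraries of both groups. Macrophage markers summed to 8.67 to 8.80 and 5.39 to 6.24 FPKM with Ptprc at 0, and endothelial markers to 1.55 to 1.69 and 1.10 to 1.17 FPKM with Cdh5 at 0. These sums cover only the markers in the table, 7 of 12 for hepatocytes, 5 of 12 for macrophages and 9 of 10 for endothelial cells. In bulk RNA, fewer cells of a type and less RNA per cell cannot be told apart. Depth in reads is unknown. The summed FPKM of a library lay between 503920 and 521239 with CLK8+TGFb and between 543014 and 559906 with vehicle, and 10845 to 10914 genes per library reached 1 FPKM in these 6 libraries. The relative depth, read from the smallest value steps of 37 low genes, was 0.981 to 1 in them.

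**Figure D1:**
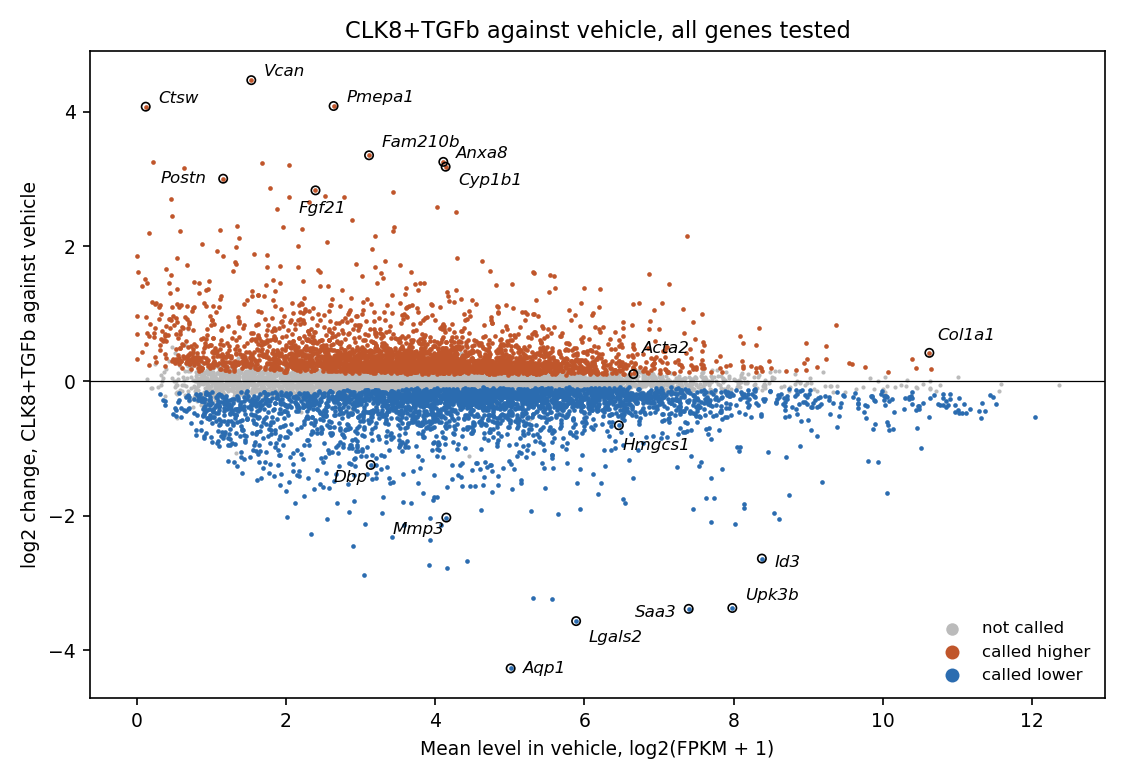
Log2 change of FPKM + 1 from vehicle to CLK8+TGFb (y axis) against the mean level of the gene with vehicle (x axis, log2(FPKM + 1)), with a point for each of 11297 genes. The 3152 called higher genes and 3093 called lower genes (limma adjusted p under 0.05) are coloured by direction, and circled points are named, with Vcan highest and Aqp1 lowest.

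Of 11297 genes tested, 6245 (55.3%) differed between CLK8+TGFb and vehicle at an adjusted p under 0.05 (limma, Benjamini-Hochberg over all genes tested), and such genes are said to have been called. The libraries of both groups did not overlap for 65.4% of genes. The called genes comprised 3152 higher genes (27.9%) and 3093 lower genes (27.4%). At least 2-fold changes were fewer, with 208 called genes (1.84%) higher and 224 (1.98%) lower. The share of called genes that were higher was 50.5%, or 50.6% after quantile normalization (3153 higher and 3081 lower). It was 68.9% when libraries were rescaled to a common sum of transcripts (TPM, 4582 higher and 2068 lower), where the median change of all genes moved from 0.0077 to 0.11 on the log2 scale. Changes of about 0.1 therefore depend on the scaling. Counts against vehicle in the gene groups below are read against the 27.9% higher and 27.4% lower, also where these shares are not repeated. The called share was 54.9% for TGFb against vehicle and 43.9% for CLK8 against vehicle, comparisons that share the vehicle libraries with the combination. Shares by direction in the other comparisons depend on the scaling too. Against TGFb alone 3130 genes were higher and 1508 lower, or 2241 and 2277 after quantile normalization and 3563 and 1122 on TPM. Gene lists were not recounted under other scalings for these comparisons. Fold changes on the log2(FPKM + 1) scale understate the change of genes near or below 1 FPKM.

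The largest rise was that of Vcan (ENSMUSG00000021614, chromosome 13, 89655312 to 89742509 in GRCm38), which codes for versican, a large chondroitin sulfate proteoglycan. Its level was 2.09, 1.92 and 1.71 FPKM in the vehicle libraries and 64.6, 65.2 and 60.3 FPKM with CLK8+TGFb. Every combination library was far above every vehicle library (log2 4.47, SE 0.069, limma adjusted p = 2.31e-23). TGFb alone gave 17.2, 16.4 and 16.4 FPKM and CLK8 alone 19.2, 18.4 and 17.97 FPKM, so Vcan was higher with each component and highest with both. The combined change was below the sum of its components (interaction -0.88 on the log2 scale, SE 0.10, limma adjusted p = 2.43e-06).

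Pmepa1 (ENSMUSG00000038400, chromosome 2, 173224458 to 173276533), a TGFb target whose product dampens SMAD signalling, was next. It stood at 5.42, 5.50 and 4.80 FPKM in the vehicle libraries and 105, 104 and 105 FPKM with CLK8+TGFb (log2 4.09, SE 0.063, limma adjusted p = 2.31e-23). The groups did not overlap, and CLK8 alone gave 4.05, 4.38 and 4.19 FPKM, below the mean of vehicle. Cyp1b1 (ENSMUSG00000024087, chromosome 17, 79701537 to 79715061), a cytochrome P450 gene of the aryl hydrocarbon receptor, rose from 16.8, 17.3 and 15.9 to 157, 164 and 157 FPKM (log2 3.18, SE 0.054, limma adjusted p = 1.04e-22). Cyp1b1 was also higher with TGFb alone (58.9 ± 0.694 FPKM, mean ± SD, n = 3) and with CLK8 alone (39.02 ± 3.30 FPKM). Runx1, a transcription factor, rose by 3.21 from 3.23, 3.02 and 3.15 to 35.98, 38.6 and 37.5 FPKM, and Kif26b, a kinesin family gene, by 3.23 from 2.35, 2.16 and 2.10 to 29.2, 30.1 and 28.02 FPKM. Both also exceeded TGFb alone, by 0.21 and 0.20. Fam210b, a mitochondrial protein gene, rose by 3.35 to 85.3, 87.2 and 90.3 FPKM, Anxa8, an annexin gene, by 3.26 to 165, 161 and 165 FPKM, and Pdzrn3, a ubiquitin ligase gene, by 2.75 to 38.3, 38.3 and 36.96 FPKM.

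Several of the strongest rises began at low levels. Crispld2, a secreted glycoprotein gene, went from 0.14, 0.19 and 0.18 to 9.95, 10.3 and 10.2 FPKM. Ctsw, the gene of the cysteine protease cathepsin W, went from 0.12, 0.03 and 0.12 to 17.5, 18.8 and 15.9 FPKM, against 37.04, 36.96 and 37.9 FPKM with TGFb alone. Mfap4, a microfibril protein gene, went from 0.59, 0.68 and 0.40 to 12.3, 12.4 and 14.02 FPKM, and Postn, the gene of the matrix protein periostin, from 1.38, 1.29 and 1.05 to 17.8, 17.8 and 15.4 FPKM. All 4 genes were low with vehicle, Postn just above 1 FPKM and the others below it, and far higher in each combination library (log2 changes of 3.26, 4.08, 3.16 and 3.01). Ptprb, a receptor phosphatase gene, rose by 2.87 to 25.4, 24.5 and 22.5 FPKM and completes the 15 largest rises with Fgf21 and Mmp2, described below. Exons of Ctsw overlap those of Fibp and exons of Mfap4 those of Mapk7, and whether counting used strand is not given, so both values are less certain. The same holds for Ldlrad4, Ltbp3, Tgm2, Pcolce, Pdia6, Acsl3, Npc1 and Junb among the genes named below.

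The largest fall was that of Aqp1 (ENSMUSG00000004655, chromosome 6, 55336432 to 55348555), a water channel gene, at 29.01, 32.2 and 32.7 FPKM in the vehicle libraries and 0.54, 0.70 and 0.79 FPKM with CLK8+TGFb (log2 -4.27, SE 0.17, limma adjusted p = 2.5e-14). No combination library came near a vehicle library, and TGFb alone gave 1.49, 2.03 and 1.93 FPKM. Saa3, an acute-phase serum amyloid gene, fell by 3.38 from 135, 199 and 174 to 13.8, 15.9 and 15.8 FPKM. It was intermediate with each component, at 67.98 ± 9.40 FPKM with TGFb and 32.7 ± 2.60 FPKM with CLK8. The same order held for Upk3b, a uroplakin gene of mesothelial cells, which went from 241, 256 and 259 to 19.9, 26.3 and 24.6 FPKM (log2 -3.37, SE 0.14, limma adjusted p = 9.55e-14), with 87.7 ± 3.87 FPKM for TGFb and 57.9 ± 6.16 FPKM for CLK8. Cemip, whose product degrades hyaluronan, went from 42.2, 36.1 and 37.5 to 3.43, 3.50 and 2.87 FPKM, with 14.9 ± 0.441 and 7.57 ± 1.77 FPKM for TGFb and CLK8.

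Lgals2, a galectin gene, fell to 3.79, 3.85 and 4.39 FPKM from 56.9, 61.5 and 56.5 FPKM, and Rtn1, a reticulon gene of the endoplasmic reticulum, to 1.69, 1.63 and 1.52 from 17.6, 15.7 and 17.3 FPKM. Ogn, the small matrix proteoglycan osteoglycin, fell to 1.33, 1.50 and 1.0 from 13.7, 14.3 and 14.2 FPKM. Serpind1, the gene of the thrombin inhibitor heparin cofactor II, fell to 0.16, 0.12 and 0.10 from 7.69, 6.92 and 7.32 FPKM, and Apoe, the gene of apolipoprotein E, to 1.60, 1.70 and 1.87 from 12.4, 9.70 and 10.99 FPKM. Log2 changes of these 5 genes ran from -3.57 for Lgals2 to -2.14 for Apoe, and none of their groups overlapped. Tent5c, a poly(A) polymerase gene, fell by 2.67, Fxyd1, a regulator of the sodium pump, by 2.45, and Frmd4b, a scaffold gene, by 2.36. Ccnd1, the gene of the cell cycle protein cyclin D1, went from 11.2, 8.85 and 9.21 to 1.53, 0.98 and 0.98 FPKM (log2 -2.31, SE 0.19, limma adjusted p = 1.6e-09). Exons of Lgals2 overlap those of Cdc42ep1, so its value is less certain, and the same holds for Ccnd1.

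**Figure D2:**
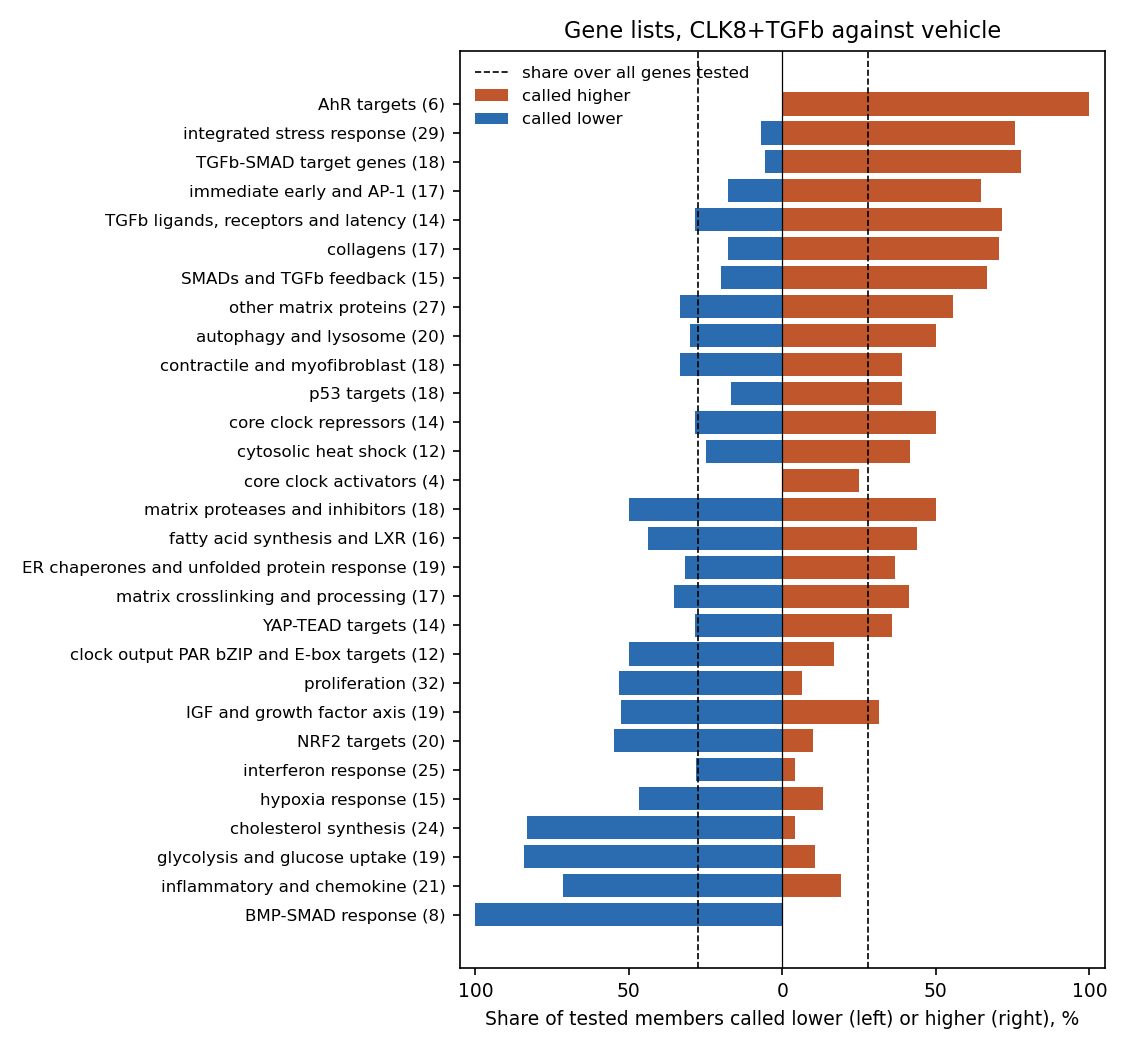
Share of tested members (x axis, %) that were called higher (bars to the right of 0) or lower (bars to the left) with CLK8+TGFb than with vehicle in each of the 29 gene lists (y axis, sorted by median change), with the number of tested members in brackets and dashed lines at the shares over all genes, 27.9% and 27.4%. BMP-SMAD response (0 higher, 8 lower of 8) and cholesterol synthesis (1 and 20 of 24) lie to the left, and the integrated stress response (22 and 2 of 29) lies to the right.

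The TGFb pathway itself was altered at most levels. Of 14 tested genes for ligands, receptors and latency proteins, 10 rose and 4 fell, against 27.9% and 27.4% of all genes. Tgfb1, the main fibrogenic ligand, was at 20.7, 21.1 and 22.7 FPKM in the vehicle libraries and 27.3, 26.4 and 28.9 FPKM with CLK8+TGFb (log2 0.34, SE 0.050, limma adjusted p = 4.01e-06). Tgfb2, another ligand, went the other way, from 13.2, 12.5 and 12.3 to 3.59, 3.88 and 3.92 FPKM (log2 -1.51, SE 0.068, limma adjusted p = 9.29e-15). It was lower than with TGFb alone (9.65 ± 0.346 FPKM) or with CLK8 alone (6.06 ± 0.281 FPKM). The receptor gene Tgfbr1 rose by 0.28 to 11.7, 10.98 and 10.8 FPKM from 8.74, 9.23 and 9.01 FPKM. Latency genes rose more, Ltbp1 by 1.35 and Ltbp3 by 1.02, and Thbs1, whose product thrombospondin 1 can release latent TGFb, rose by 0.88 to 177, 166 and 161 FPKM.

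Among 15 SMAD and feedback genes, 10 rose and 3 fell. Beside Pmepa1, the SMAD inhibitor gene Skil went from 4.65, 4.59 and 4.29 to 15.9, 16.6 and 15.3 FPKM (log2 1.62), Ldlrad4, a relative of Pmepa1, from 1.59, 1.46 and 1.55 to 11.7, 11.7 and 11.02 FPKM (log2 2.30), and the corepressor gene Tgif1 rose by 1.33. All 3 stood clear of vehicle. Smad7, the inhibitory SMAD gene, did not: it was at 8.27, 8.41 and 8.45 FPKM in the vehicle libraries and 8.38, 8.07 and 8.89 FPKM with CLK8+TGFb (log2 0.0099, 95% interval -0.13 to 0.15, limma adjusted p = 0.916). CLK8 alone held Smad7 at 3.28, 3.21 and 3.62 FPKM, and with TGFb added it overlapped vehicle (interaction 1.18, limma adjusted p = 9.6e-08).

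Of 18 tested TGFb-SMAD target genes, 14 rose and 1 fell with the combination, with a median change of 0.56 against 0.0077 for all genes. Ccn2 (ENSMUSG00000019997, chromosome 10, 24595442 to 24598683), the gene of connective tissue growth factor, rose from 41.1, 34.9 and 32 to 85.7, 65.3 and 56.9 FPKM (log2 0.91, SE 0.26, limma adjusted p = 0.00607), against 181, 166 and 176 FPKM with TGFb and 8.33, 3.66 and 7.99 FPKM with CLK8. The combination level of Ccn2 thus lay between vehicle and TGFb. Snai1, a transcription factor of mesenchymal transition, rose by 1.78, Tgfbi, a matrix adhesion gene, by 1.89, and Cdkn2b, a cell cycle inhibitor gene, by 1.03. Set against TGFb alone, 9 of the 18 were lower and 3 higher with the combination, where 13.3% of all genes were called lower and 27.7% higher.

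Genes of the bone morphogenetic protein (BMP) response, the other SMAD branch, fell together. All 8 tested members were lower with the combination, with a median of -1.15. The ID genes code for inhibitors of basic helix-loop-helix factors and are the classic BMP targets. Id1 (ENSMUSG00000042745, chromosome 2, 152736251 to 152737410) was at 192, 201 and 196 FPKM in the vehicle libraries and 53.8, 57.7 and 63.1 FPKM with CLK8+TGFb (log2 -1.74, SE 0.081, limma adjusted p = 1.75e-14). Id2 was at 45.1, 46.1 and 47.6 FPKM in the vehicle libraries and 4.05, 4.03 and 4.0 FPKM with CLK8+TGFb, and Id3 at 315, 342 and 338 FPKM in the vehicle libraries and 47.2, 54.5 and 56.1 FPKM with CLK8+TGFb. For each ID gene the highest combination value was far under the lowest vehicle value, with log2 changes of -3.23 for Id2 and -2.64 for Id3. Smad9, a BMP receptor SMAD gene, fell by 1.13. With TGFb alone 8 of the 8 and with CLK8 alone 7 of the 8 were lower than vehicle, where 34.4% and 13.6% of all genes were.

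Collagen genes were mostly above vehicle and below TGFb alone. Of 17 tested, 12 rose and 3 fell. Against TGFb alone 11 were lower and 0 higher, where 13.3% and 27.7% of all genes were. Col1a1 (ENSMUSG00000001506, chromosome 11, 94936224 to 94953042), the main fibrillar collagen of scar, was at 1651, 1511 and 1561 FPKM in the vehicle libraries and 1956, 2306 and 2064 FPKM with CLK8+TGFb (log2 0.42, SE 0.082, limma adjusted p = 0.000151). TGFb alone gave 2230.3, 2415 and 2617 FPKM and CLK8 alone 1076, 1043 and 1026 FPKM, so the combination was above vehicle and CLK8. It was not called against TGFb alone (log2 -0.20, 95% interval -0.37 to -0.030, adjusted p = 0.0554). Its partner chain gene Col1a2 rose by 0.33 and Col3a1, a collagen of early scar, by 0.53. Larger rises were those of the minor fibrillar collagens Col5a1 (62.8, 60.5 and 65.01 to 159.6, 176 and 159 FPKM, log2 1.38) and Col5a2 (log2 0.99) and of the short-chain collagen Col8a2. Col8a2 stood at 8.05, 7.75 and 8.60 FPKM in the vehicle libraries and 39.3, 40.2 and 38.98 FPKM with CLK8+TGFb, with 71.9, 72.8 and 77.96 FPKM for TGFb alone and 2.19, 2.83 and 2.52 FPKM for CLK8 alone, the order seen for Ccn2. The falls were larger than the rise of Col5a1 for the genes of collagen VI chains alpha 1 and alpha 2, chosen after their values were seen. Their means went from 581.5 to 205.5 FPKM (log2 -1.50) and from 427.6 to 131.6 FPKM (log2 -1.69).

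Other matrix genes were divided, with 15 of 27 higher (55.6%) and 9 lower (33.3%), against 27.9% and 27.4% of all genes. Postn, though far above vehicle, was lower than with TGFb alone, at 17 ± 1.35 FPKM (mean ± SD, n = 3) against 41.3 ± 2.47 FPKM (log2 -1.23, SE 0.10, limma adjusted p = 1.41e-09). Has2, a hyaluronan synthase gene, was at 1.32, 1.19 and 1.01 FPKM in the vehicle libraries and 9.07, 9.49 and 9.28 FPKM with CLK8+TGFb (log2 2.24), and was also higher than with TGFb alone by 0.29. Hyaluronan genes thus moved in both directions at once, Has2 up and Cemip down, as measured at the level of RNA. Among 17 genes of matrix crosslinking and processing, 7 rose (41.2%) and 6 fell (35.3%). P4ha3, a collagen prolyl hydroxylase gene, rose by 1.02 and Bmp1, the procollagen C-proteinase, by 0.42. Tgm2, a transglutaminase gene, fell by 1.91 from 54.7, 62.2 and 65.5 to 15.2, 15.1 and 15.9 FPKM, and Pcolce, an enhancer of procollagen processing, by 1.04.

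Proteases and their inhibitors split evenly, with 9 of 18 higher and 9 lower, though TPM left 6 lower. Mmp2 (ENSMUSG00000031740, chromosome 8, 92827291 to 92853420), the gelatinase A gene, was at 9.78, 9.94 and 9.73 FPKM in the vehicle libraries and 71.99, 77.6 and 74.2 FPKM with CLK8+TGFb (log2 2.80, SE 0.056, limma adjusted p = 1.9e-21), and Mmp14, the membrane protease that activates it, rose by 1.16 to 299, 285 and 294 FPKM from 127, 134 and 131 FPKM. The inhibitor genes rose as well, Timp1 from 106, 127 and 118 to 223, 208 and 219.6 FPKM (log2 0.89) and Timp3 from 171, 165 and 160.1 to 742, 756 and 713 FPKM (log2 2.15). Mmp14 was higher than with TGFb alone by 0.53, while Timp1 was lower than with TGFb alone, by 0.48. Mmp3, the stromelysin gene, fell from 15.7, 18.7 and 16.03 to 4.37, 2.87 and 2.97 FPKM. CLK8 alone raised Mmp3 to 34.1, 38.9 and 32.9 FPKM and TGFb alone lowered it to 0.53, 0.36 and 0.27 FPKM, so the combination lay between its components. Plat, the tissue plasminogen activator gene, fell by 0.77. Exons of Timp3 overlap those of Syn3.

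**Figure D3:**
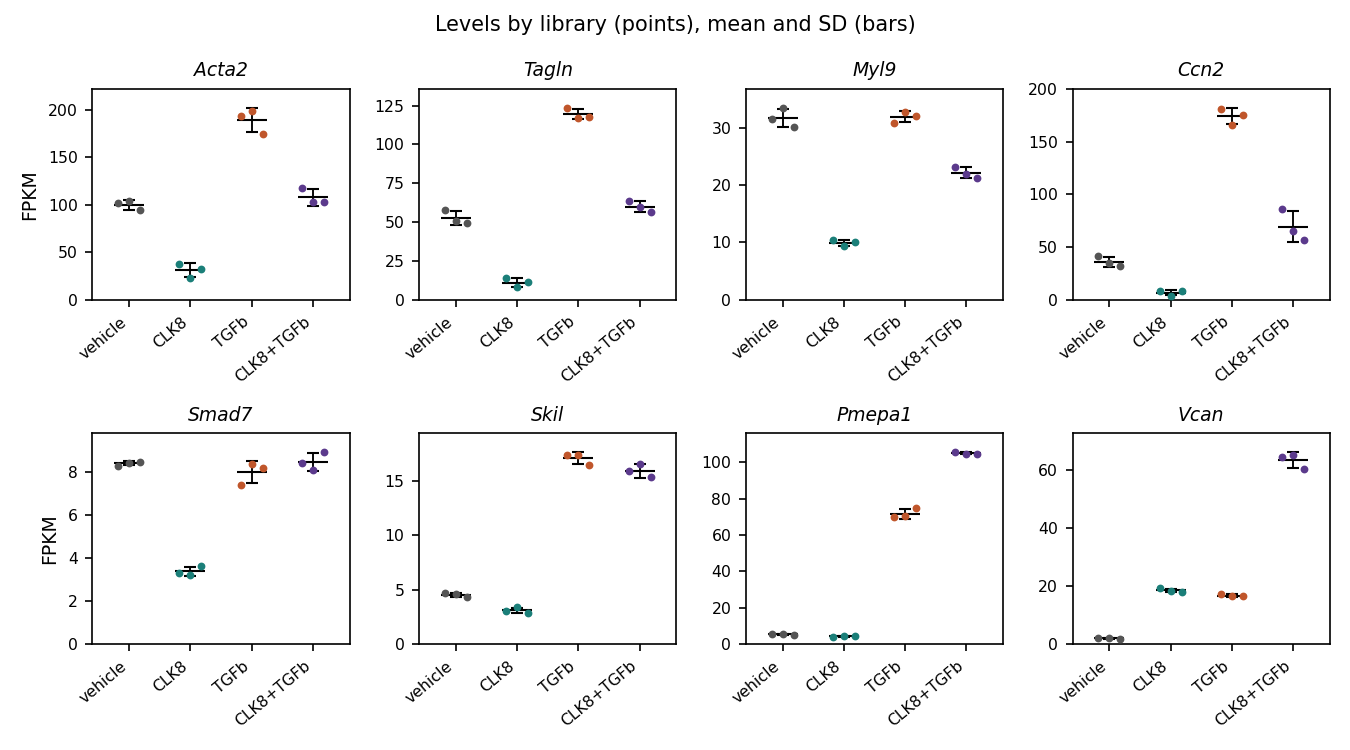
Levels (y axis, FPKM) of the contractile genes Acta2, Tagln and Myl9 and of the TGFb targets or feedback genes Ccn2, Smad7, Skil, Pmepa1 and Vcan in each of the 3 libraries (points) of vehicle, CLK8, TGFb and CLK8+TGFb (x axis), with bars at the group mean ± SD. Acta2, Tagln and Smad7 overlap between vehicle and CLK8+TGFb, while Pmepa1 and Vcan are highest with CLK8+TGFb.

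Contractile genes, which mark the myofibroblast, were divided, and Acta2 stood near vehicle in the combination. Acta2 (ENSMUSG00000035783, chromosome 19, 34241090 to 34255590), the alpha smooth muscle actin gene, was at 102, 104 and 93.9 FPKM in the vehicle libraries and 118, 102 and 103 FPKM with CLK8+TGFb. The groups overlapped and the difference was not called (log2 0.10, 95% interval -0.20 to 0.41, limma adjusted p = 0.565). TGFb alone raised Acta2 to 193, 199 and 174 FPKM and CLK8 alone lowered it to 37.5, 22.9 and 32.4 FPKM. Acta2 was thus higher by 1.79 on the log2 scale with both than with CLK8 alone, and by 0.91 with TGFb alone than with vehicle. The interaction was called (log2 0.88, SE 0.20, limma adjusted p = 0.00951).

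Tagln and Myl9, 2 contractile genes chosen after their values were seen, showed related patterns. Tagln, the gene of the actin-binding protein SM22, was at 57.5, 50.5 and 49.6 FPKM in the vehicle libraries and 63.4, 59.9 and 56.5 FPKM with CLK8+TGFb (log2 0.19, 95% interval -0.17 to 0.54, limma adjusted p = 0.363, or 0.0215 when only these 2 groups were fitted), with 123, 117 and 118 FPKM for TGFb and 13.8, 8.15 and 11.1 FPKM for CLK8. Myl9, a myosin light chain gene, fell from 31.5, 33.4 and 30.2 to 23.1, 21.9 and 21.3 FPKM (log2 -0.50, SE 0.078, limma adjusted p = 9.4e-06), and TGFb alone left it at 30.8, 32.7 and 32.1 FPKM. Over all 18 tested contractile genes, 7 rose and 6 fell, near the 27.9% and 27.4% of all genes. Against TGFb alone, 11 of the 18 were lower and 1 higher, where 13.3% and 27.7% of all genes were. Against CLK8 alone 16 were higher, where 17.3% of all genes were (51.9% were called in either direction). Not all members followed Acta2. Cald1, the caldesmon gene, rose by 1.08 to 351, 322 and 338 FPKM and Itgb5, an integrin gene, by 1.45, both above TGFb alone or near it (0.27 and 0.12 against TGFb). Mylk, the myosin light chain kinase gene, fell by 1.30, and Myh9, a nonmuscle myosin gene, rose by 0.44.

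The clock genes were read next, because CLK8 is aimed at CLOCK. E-boxes carry the letters CACGTG, a palindrome, and D-boxes, bound by the PAR bZIP factors DBP and TEF, were searched as TTATGTAA or TTATGCAA on both strands. The search took 300-base windows of RefSeq gene starts (GRCm38.p6), from 250 bases before to 50 after the start. An E-box lay in 7.15% of all 32851 windows and a D-box in 1.66%. Of 27 clock genes with a window, 6 held an E-box (Ciart, Bhlhe41, Cry1, Per1, Tef and Lonrf3) and 2 a D-box (Per1 and Per3). A gene was counted if any of its windows held a match, so counts of genes and shares of windows are not like for like. The windows of Ciart (chr3:95882179-95882478, minus strand), Tef (chr15:81802423-81802722, plus strand) and Per1 (chr11:69098699-69098998, plus strand) are shown because the RNA of Ciart and Tef fell and that of Per1 was not called, with E-boxes and D-boxes in capitals. Of the other genes with an E-box, Bhlhe41 rose (log2 0.51), Cry1 was not called and Lonrf3 was not tested. A match describes the sequence and not a bound site.
Ciart: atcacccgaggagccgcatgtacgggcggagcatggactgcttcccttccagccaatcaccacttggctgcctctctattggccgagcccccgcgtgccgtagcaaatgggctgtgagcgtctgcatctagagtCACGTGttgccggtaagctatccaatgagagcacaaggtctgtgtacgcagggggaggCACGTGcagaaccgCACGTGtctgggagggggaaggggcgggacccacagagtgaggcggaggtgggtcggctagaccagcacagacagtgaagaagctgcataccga
Tef: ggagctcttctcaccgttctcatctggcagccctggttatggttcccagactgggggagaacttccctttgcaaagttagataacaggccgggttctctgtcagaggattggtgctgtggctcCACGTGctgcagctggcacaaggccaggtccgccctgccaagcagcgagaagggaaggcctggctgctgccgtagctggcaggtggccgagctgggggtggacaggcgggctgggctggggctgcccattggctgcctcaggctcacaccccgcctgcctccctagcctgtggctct
Per1: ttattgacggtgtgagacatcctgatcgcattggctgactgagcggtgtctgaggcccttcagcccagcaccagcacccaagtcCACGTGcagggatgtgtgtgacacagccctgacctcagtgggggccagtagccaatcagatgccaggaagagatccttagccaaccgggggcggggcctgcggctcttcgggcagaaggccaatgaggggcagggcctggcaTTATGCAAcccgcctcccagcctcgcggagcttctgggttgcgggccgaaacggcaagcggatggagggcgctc

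Among the activators, Arntl (ENSMUSG00000055116, chromosome 7, 113207465 to 113314126) was at 6.41, 6.36 and 6.13 FPKM in the vehicle libraries and 12.5, 12.8 and 12.6 FPKM with CLK8+TGFb (log2 0.90, SE 0.051, limma adjusted p = 5.92e-13). Arntl was 0.16 higher than with TGFb alone (11.5, 11.3 and 10.8 FPKM), and CLK8 alone gave 6.84, 6.37 and 6.56 FPKM. Its partner gene Clock was at 6.67, 6.27 and 6.18 FPKM in the vehicle libraries and 7.14, 6.82 and 6.53 FPKM with CLK8+TGFb, a difference that was not called (log2 0.087, 95% interval -0.11 to 0.28, limma adjusted p = 0.452). Rora, a nuclear receptor that activates Arntl, was not called either (log2 0.0011, and -0.040 without CLK8+TGFb replicate 2). Npas2, a relative of Clock, did not reach the level needed for testing.

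Of 14 repressor genes, 7 rose (50%, against 27.9% of all genes) and 4 fell (28.6%, near the 27.4% of all genes). Nr1d1 and Nr1d2 code for the REV-ERB repressors of Arntl. Nr1d1 was at 2.44, 2.21 and 1.73 FPKM in the vehicle libraries and 4.04, 3.97 and 3.61 FPKM with CLK8+TGFb (log2 0.65, SE 0.083, limma adjusted p = 6.04e-07), close to CLK8 alone (4.75, 3.81 and 4.22 FPKM), and Nr1d2 rose by 0.33. Bhlhe40, an E-box competitor of the dimer, was at 17.9, 24.2 and 21.5 FPKM in the vehicle libraries and 36.6, 44.9 and 45.2 FPKM with CLK8+TGFb (log2 0.96, SE 0.18, limma adjusted p = 0.000186), and Bhlhe41 rose by 0.51. Nfil3, a repressor at D-boxes, rose by 0.75. Thus Arntl and the repressor genes Nr1d1, Nr1d2, Bhlhe40, Bhlhe41 and Nfil3 were higher, while Per2, Per3, Cry2 and Ciart were lower. Per2 went from 4.83, 5.06 and 5.18 to 2.47, 2.79 and 2.34 FPKM (log2 -0.77, SE 0.066, limma adjusted p = 8.47e-10), below each component (3.51 ± 0.159 FPKM with TGFb and 3.50 ± 0.264 FPKM with CLK8). Per3 fell by 0.33 and Cry2 by 0.42. Per1 was at 7.10, 8.11 and 7.74 FPKM in the vehicle libraries and 7.12, 8.04 and 7.47 FPKM with CLK8+TGFb and overlapped (log2 -0.018, 95% interval -0.14 to 0.11), and Cry1 was not called (log2 -0.14, adjusted p = 0.087). Ciart, an inhibitor of the dimer that was chosen after its values were seen, was at 9.09, 9.97 and 9.74 FPKM in the vehicle libraries and 5.31, 7.05 and 6.44 FPKM with CLK8+TGFb (log2 -0.55, SE 0.14, limma adjusted p = 0.00286). CLK8 alone had it lower still, at 3.51, 5.57 and 3.34 FPKM. Exons of Nr1d1 overlap those of Thra on the opposite strand.

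**Figure D4:**
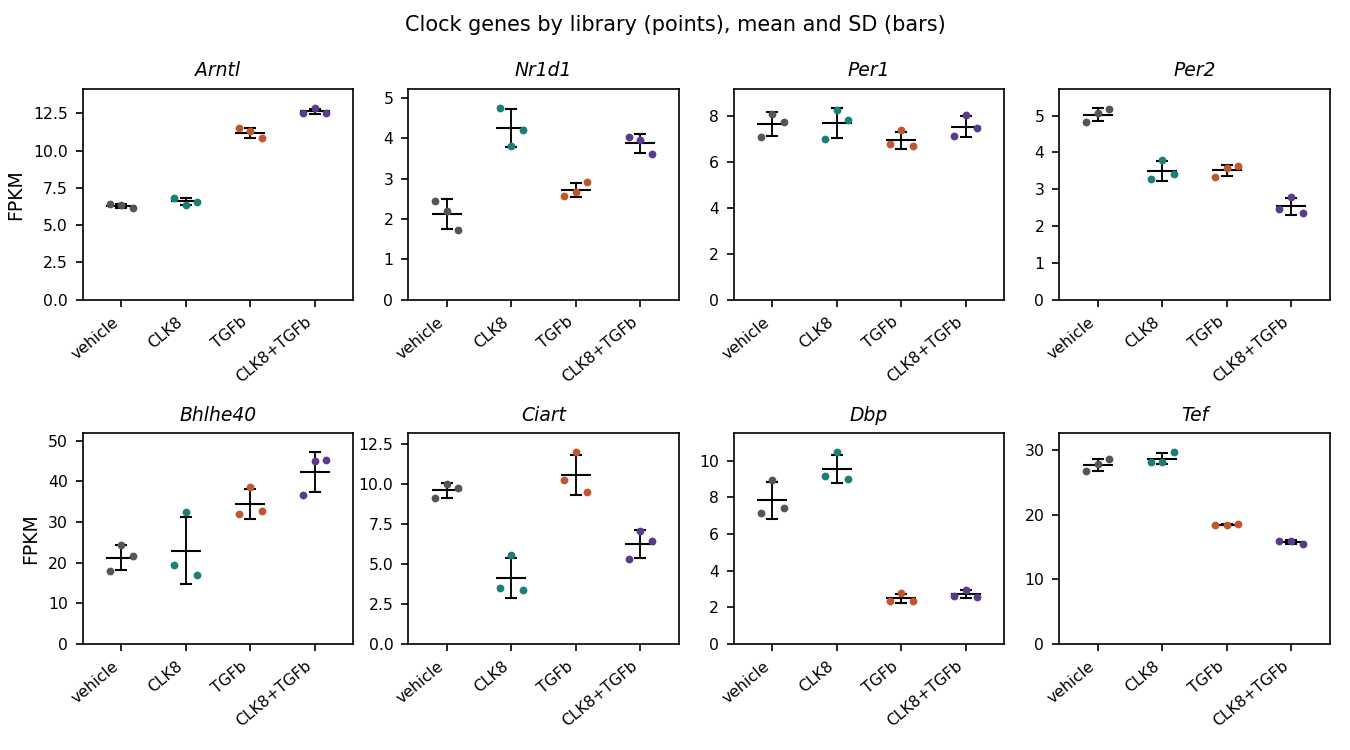
Levels (y axis, FPKM) of the clock genes Arntl, Nr1d1, Per1, Per2, Bhlhe40, Ciart, Dbp and Tef in each of the 3 libraries (points) of vehicle, CLK8, TGFb and CLK8+TGFb (x axis), with bars at the group mean ± SD. Arntl and Bhlhe40 are higher, and Per2, Dbp and Tef lower, with CLK8+TGFb than with vehicle, while Per1 overlaps.

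Clock output genes were lower more often than higher, with 6 of 12 lower and 2 higher, or 3 lower and 2 higher on TPM. Dbp, a PAR bZIP factor driven through E-boxes, was at 7.13, 8.97 and 7.40 FPKM in the vehicle libraries and 2.62, 2.96 and 2.56 FPKM with CLK8+TGFb (log2 -1.25, SE 0.10, limma adjusted p = 1.75e-10). TGFb alone gave 2.33, 2.78 and 2.34 FPKM and CLK8 alone 9.18, 10.5 and 9.03 FPKM. Tef fell from 26.7, 27.8 and 28.6 to 15.97, 15.9 and 15.5 FPKM (log2 -0.77, SE 0.047, limma adjusted p = 1.85e-12), and again CLK8 alone left it at 28.2, 28.1 and 29.6 FPKM, near vehicle. The rises were those of Tsc22d3, a glucocorticoid-induced gene, by 0.79, and of Cdkn1a, the cell cycle inhibitor p21, by 0.90. Libraries from a single time point cannot show a phase or an amplitude. Exons of Dbp overlap those of Sphk2.

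Inflammatory genes were mostly lower. Of 21 tested, 15 fell and 4 rose, with a median of -0.76. Of these 21, 11 were lower than with TGFb alone, where 13.3% of all genes were. Cxcl5, a neutrophil chemokine gene, went from 2.75, 3.82 and 3.56 to 0.28, 0.20 and 0.24 FPKM, and Nfkbia, an inhibitor and target of NF-kappaB, from 50.5, 55.4 and 53.1 to 24.96, 25.5 and 27.3 FPKM (log2 -1.0, SE 0.065, limma adjusted p = 7.35e-12). Ccl2, Cxcl10 and Il6 were chosen after their values were seen. Ccl2, the monocyte chemokine gene, was at 179, 235 and 208 FPKM in the vehicle libraries and 57.9, 40.3 and 45.5 FPKM with CLK8+TGFb (log2 -2.10, SE 0.16, limma adjusted p = 7.11e-10), with 130.1, 139 and 133 FPKM for TGFb and 59.5, 42.6 and 55.95 FPKM for CLK8. Cxcl10, a chemokine gene induced by interferon, fell by 1.27 from 156, 246 and 163 to 86.6, 59.2 and 85.1 FPKM and was at 162, 176 and 192 FPKM with TGFb alone. Neither chemokine gene was called against CLK8 alone (log2 -0.14 and 0.28).

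The 4 rises in this list were those of Ptgs2, Il1rl1, Il6 and Cx3cl1. Cx3cl1, the gene of the chemokine fractalkine and chosen after its values were seen, went from 1.99, 1.85 and 2.41 to 3.40, 3.33 and 3.12 FPKM (log2 0.48). Ptgs2, the cyclooxygenase 2 gene, was at 6.04, 5.90 and 5.57 FPKM in the vehicle libraries and 49.5, 41.4 and 42.3 FPKM with CLK8+TGFb (log2 2.73, SE 0.090, limma adjusted p = 3.24e-17). Il1rl1, the receptor of IL-33, went from 0.21, 0.49 and 0.37 to 3.17, 2.59 and 2.42 FPKM, and Il6, a cytokine gene, from 1.75, 2.10 and 1.57 to 5.02, 5.16 and 6.13 FPKM. Il33, the ligand of that receptor, fell by 0.50 from 12.98, 14.2 and 13.9 to 7.75, 10.3 and 10.2 FPKM. For Il33 the combination was below TGFb alone (16.3, 17.1 and 15.3 FPKM) and below CLK8 alone (20.9, 22.1 and 19.8 FPKM). Of 25 interferon response genes, 1 rose and 7 fell, the latter near the 27.4% of all genes. Without vehicle replicate 1 or 3, or without CLK8+TGFb replicate 1 or 3, 0 rose, without CLK8+TGFb replicate 2, 2 rose, and without vehicle replicate 2, 3 rose. The falls included Oas2, an antiviral sensor gene, by 1.09, Rsad2, the viperin gene, by 0.72, and Ifih1, the gene of the RNA sensor MDA5, by 0.56. Against TGFb alone, 14 of the 25 were higher, where 27.7% of all genes were.

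Genes of the integrated stress response, in which the factor ATF4 drives amino acid supply genes, rose as a group. Of 29 tested, 22 rose and 2 fell, with a median of 0.59, and 1 fell without CLK8+TGFb replicate 1 or without vehicle replicate 2 or 3. With TGFb alone 21 rose and 1 fell, where 20.5% and 34.4% of all genes did. Against TGFb alone, 6 were higher and 3 lower with the combination, where 27.7% and 13.3% of all genes were. ATF4 and its partners bind elements that were searched as TGATGNAAT or TGATGNAAC on both strands. They lay in 1.77% of all start windows and in 6 of 26 stress response genes with a window (Chac1, Asns, Fgf21, Nupr1, Aars and Vldlr). Here too genes were counted over all their windows, so the share of windows is not like for like. The window of Fgf21 (chr7:45615441-45615740, minus strand) is shown because it had the largest rise of the named members, with the element in capitals.
Fgf21: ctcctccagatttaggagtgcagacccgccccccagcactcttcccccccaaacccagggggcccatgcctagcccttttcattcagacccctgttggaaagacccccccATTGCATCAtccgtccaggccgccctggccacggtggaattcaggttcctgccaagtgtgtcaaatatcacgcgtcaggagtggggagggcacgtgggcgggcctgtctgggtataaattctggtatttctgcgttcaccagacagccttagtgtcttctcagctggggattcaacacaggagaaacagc

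Fgf21 (ENSMUSG00000030827, chromosome 7, 45613886 to 45615490), a stress-induced metabolic hormone, was at 4.06, 4.58 and 4.18 FPKM in the vehicle libraries and 35.4, 37.3 and 36.97 FPKM with CLK8+TGFb (log2 2.83, SE 0.10, limma adjusted p = 4.47e-17). TGFb alone gave 36.05, 44.1 and 40.1 FPKM and CLK8 alone 5.62, 4.48 and 6.12 FPKM, and the combination was not called against TGFb alone (log2 -0.13, 95% interval -0.32 to 0.072). Trib3, a pseudokinase that feeds back on ATF4, rose by 1.58 to 139.9, 143 and 131 FPKM, and Nupr1, a stress-induced nuclear protein gene, by 1.56 to 148, 138 and 139.7 FPKM. Slc3a2, the heavy chain of amino acid exchangers, was at 118, 111 and 116 FPKM in the vehicle libraries and 365, 334 and 351 FPKM with CLK8+TGFb (log2 1.59, SE 0.077, limma adjusted p = 3.3e-14). Unlike Fgf21, Slc3a2 was higher with the combination than with TGFb alone (168, 177 and 179 FPKM) and also high with CLK8 alone (305, 232 and 290.2 FPKM). The neighbouring arm of the unfolded protein response was divided, with 7 of 19 chaperone genes higher and 6 lower, or 11 higher and 3 lower after quantile normalization. The main counts are 36.8% and 31.6%, against 27.9% and 27.4% of all genes. Herpud1, a gene of protein degradation at the endoplasmic reticulum, rose by 0.80 and the chaperone gene Hyou1 by 0.42, while the disulfide isomerase gene Pdia6 fell by 0.33.

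Cholesterol synthesis genes were mostly lower with the combination than with vehicle or either component. Of 24 genes, 20 fell and 1 rose against vehicle, with a median of -0.47, or 17 lower and 1 higher on TPM. With TGFb alone 13 fell, where 34.4% of all genes did. With CLK8 alone 2 fell and 7 rose, where 13.6% and 30.3% of all genes did. Interaction terms were called lower than the sum of the components for 18 of the 24 and higher for 0, where 3.39% and 4.58% of all genes were. The combination was lower than TGFb alone for 18 and lower than CLK8 alone for 22 of the 24, where 13.3% and 34.6% of all genes were. These genes are switched on by SREBP2, which binds sterol regulatory elements, searched here as TCACCCCAC or TCACCCCAT on both strands. They lay in 0.791% of all start windows and in 2 of 16 cholesterol genes with a window, Hmgcs1 and Srebf2. Again the first is a share of windows and the second a count of genes over all their windows. The window of Hmgcs1 (chr13:119690101-119690400, plus strand) is shown with the element in capitals.
Hmgcs1: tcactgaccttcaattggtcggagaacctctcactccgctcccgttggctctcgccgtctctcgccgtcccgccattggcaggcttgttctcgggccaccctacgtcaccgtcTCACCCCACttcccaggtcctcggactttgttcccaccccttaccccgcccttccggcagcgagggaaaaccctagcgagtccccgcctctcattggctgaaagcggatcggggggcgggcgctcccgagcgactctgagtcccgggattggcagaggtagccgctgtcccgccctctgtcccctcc

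Hmgcs1 (ENSMUSG00000093930, chromosome 13, 119690379 to 119708260), the HMG-CoA synthase gene, was chosen after its values were seen. It was at 88.7, 84.5 and 88.2 FPKM in the vehicle libraries and 54.7, 53.7 and 56.2 FPKM with CLK8+TGFb (log2 -0.66, SE 0.091, limma adjusted p = 2.28e-06). TGFb alone gave 91.99, 86.5 and 85.3 FPKM and CLK8 alone 79.98, 97.6 and 85.4 FPKM, both at the level of vehicle, and only in the combination was it lower among these 4 groups (interaction -0.67, SE 0.13, limma adjusted p = 0.00154). Lss, the lanosterol synthase gene, went from 42.2, 40.2 and 41.2 to 21.5, 20.9 and 22 FPKM (log2 -0.91, SE 0.060, limma adjusted p = 7.91e-12). Mvd, mevalonate decarboxylase, fell by 0.89 and Pmvk, phosphomevalonate kinase, by 0.68. Mvd and Pmvk had called interactions of -0.52 and -0.42.

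**Figure D5:**
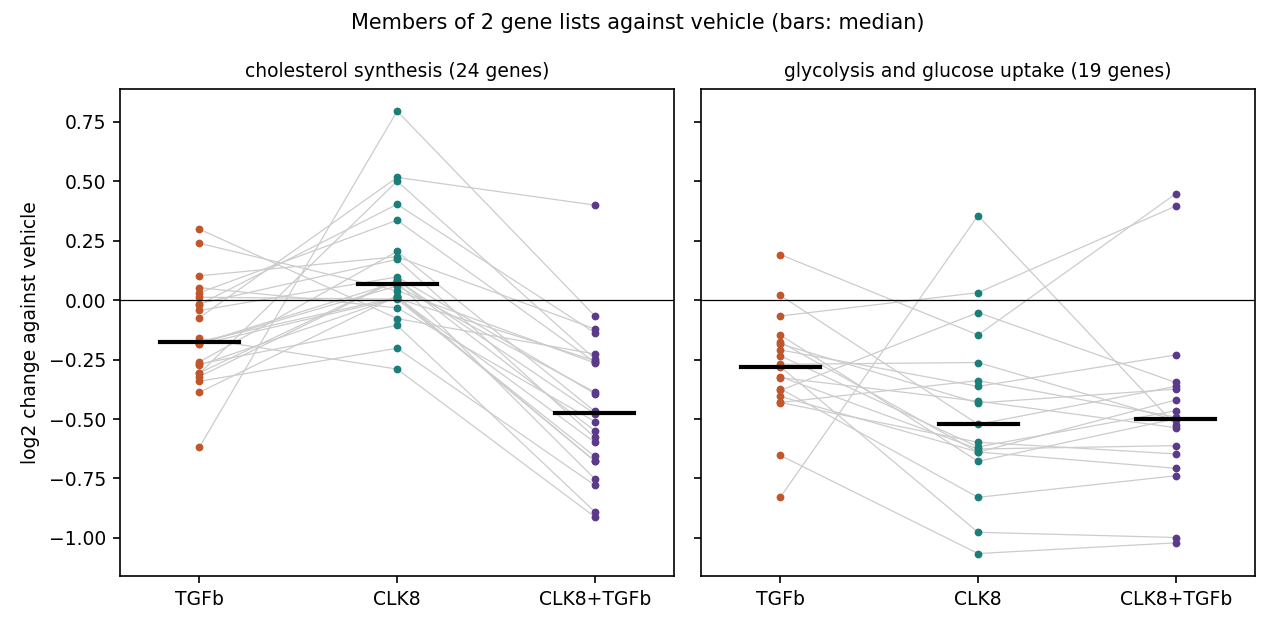
Log2 change of FPKM + 1 against vehicle (y axis) of each cholesterol synthesis gene and each glycolysis gene with TGFb, CLK8 and CLK8+TGFb (x axis). Each point is a gene, grey lines join a gene across the treatments, and bars mark medians, which for cholesterol synthesis are -0.18, 0.068 and -0.47 and for glycolysis -0.28, -0.52 and -0.50.

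Related lipid genes did not move as a block, with 7 of 16 fatty acid synthesis and LXR genes higher and 7 lower. Abca1, a cholesterol exporter gene, fell from 6.60, 6.54 and 6.52 to 1.33, 1.13 and 1.14 FPKM (log2 -1.78, SE 0.085, limma adjusted p = 2.89e-14), as did Apoe above. Fads2, a fatty acid desaturase gene, fell by 0.50, and Acsl3, an acyl-CoA synthetase gene, rose by 0.68.

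Glycolysis genes were lower in 16 of 19 cases and higher in 2, with a median of -0.50, while quantile normalization left 10 lower and 1 higher. The higher count was also 1 without CLK8+TGFb replicate 2 or 3 or without vehicle replicate 1 or 3. With CLK8 alone 16 of the 19 were lower and 1 higher, where 13.6% and 30.3% of all genes were. With TGFb alone 9 were lower and 1 higher, where 34.4% and 20.5% of all genes were. Set against CLK8 alone, the combination had 3 lower, 1 higher and 15 not called, where 34.6% and 17.3% of all genes were lower and higher. Ldha, the lactate dehydrogenase A gene, was at 1336, 1557 and 1494 FPKM in the vehicle libraries and 629.7, 791 and 781 FPKM with CLK8+TGFb (log2 -1.0, SE 0.12, limma adjusted p = 3.37e-07), level with CLK8 alone (657, 925 and 669.6 FPKM). TGFb alone gave 1136, 1317 and 1159.7 FPKM. Aldoc, an aldolase gene, fell by 1.02 and Eno2, an enolase gene, by 0.53, and Pfkfb3, a regulator of glycolytic flux, rose by 0.45. Hypoxia response genes shared some of this, with 7 of 15 lower and 2 higher, and 4 lower without CLK8+TGFb replicate 1. The higher ones were Hif1a, the oxygen-sensitive factor (75.6, 74.2 and 74.3 to 132, 131 and 131 FPKM, log2 0.80), and Vegfa, the angiogenic growth factor (62.5, 72.1 and 68.9 to 133, 143 and 126 FPKM, log2 0.97). Epas1, the gene of the related factor HIF-2alpha, fell from 1.73, 1.80 and 2.34 to 0.44, 0.49 and 0.43 FPKM, and Bnip3l, a mitophagy gene, fell by 0.76.

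The list of the aryl hydrocarbon receptor (AhR), a sensor of small molecules, held 5 tested targets and the receptor gene Ahr, and 6 of 6 rose. The 5 targets were also higher than with TGFb alone, where 27.7% of all genes were. Ahr, named after its values were seen, was lower than with TGFb alone. Ahr was at 17.8, 18 and 18.2 FPKM in the vehicle libraries and 23.7, 27.3 and 24.8 FPKM with CLK8+TGFb, with 35.3, 37.7 and 35.1 FPKM for TGFb and 6.95, 7.47 and 6.62 FPKM for CLK8. Beside Cyp1b1, Cyp1a1, the classic AhR target, went from 0.07, 0.11 and 0.12 to 1.91, 2.32 and 1.81 FPKM, with 0.02, 0 and 0 FPKM for TGFb and 1.55, 1.07 and 1.38 FPKM for CLK8. Tiparp, an AhR feedback gene, rose by 0.67 and Nqo1, a quinone reductase gene shared with the NRF2 pathway, by 0.77. Aldh3a1, an aldehyde dehydrogenase gene, went from 2.43, 2.66 and 2.95 to 3.95, 3.82 and 4.48 FPKM and was higher still with CLK8 alone (14.7, 12.3 and 13.8 FPKM). NRF2 targets as a list went the other way, with 11 of 20 lower and 2 higher. Gstm1, a glutathione transferase gene, was at 141, 160.3 and 150.0 FPKM in the vehicle libraries and 62.9, 57.5 and 63.3 FPKM with CLK8+TGFb (log2 -1.28, SE 0.079, limma adjusted p = 2.47e-12), and Osgin1 fell by 0.95 and Gsta4 by 0.88, both of the same pathway.

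Lysosome and autophagy genes mostly went in opposite directions with the 2 components. With CLK8 alone 14 of 20 rose, with TGFb alone 17 fell, and with the combination 10 rose and 6 fell against vehicle. Of all genes, 30.3% rose with CLK8 alone and 34.4% fell with TGFb alone. Mcoln1, a lysosomal calcium channel gene, was at 27.2, 25.8 and 27.5 FPKM in the vehicle libraries and 44.7, 42.1 and 42.9 FPKM with CLK8+TGFb (log2 0.67, SE 0.047, limma adjusted p = 3.19e-11), with 54.05, 49.9 and 52.5 FPKM for CLK8 and 21.9, 23.8 and 23.2 FPKM for TGFb. Npc1, a lysosomal cholesterol exporter gene, rose by 0.37, and Tfeb, the transcription factor of lysosome genes, fell by 0.74. Gpnmb, a glycoprotein gene of lysosomes, had the largest excess over TGFb alone among the named genes. It was at 9.26, 6.43 and 7.20 FPKM, against 0.70, 0.76 and 0.81 FPKM with TGFb, 35.1, 30.5 and 33.7 FPKM with CLK8 and 5.15, 5.90 and 4.70 FPKM with vehicle. Xdh, the xanthine oxidoreductase gene, showed the same order, at 55.1 ± 3.97, 14.9 ± 1.25, 90.9 ± 3.89 and 33.7 ± 4.28 FPKM.

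Immediate early genes, the first transcription factors induced by growth signals, rose in 11 of 17 cases and fell in 3. Of the 17, 10 were higher than with TGFb alone, where 27.7% of all genes were. Junb, an AP-1 subunit gene, was at 55.2, 60.8 and 57.6 FPKM in the vehicle libraries and 111, 108 and 128 FPKM with CLK8+TGFb (log2 0.98, SE 0.065, limma adjusted p = 9.08e-12), Ier2 rose by 1.12, the zinc finger factor gene Klf4 by 0.95 and Egr2 by 1.48. Of 14 targets of YAP and TEAD, 5 rose (35.7%) and 4 fell (28.6%), against 27.9% and 27.4% of all genes. Ccn1, a matricellular protein gene, rose by 1.15 to 239.8, 220.3 and 249 FPKM and Ajuba, a scaffold gene, by 0.97, with log2 differences from TGFb alone of -0.056 (not called) and 0.16.

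Growth factor genes were divided, with 6 of 19 higher (31.6%) and 10 lower (52.6%), against 27.9% and 27.4% of all genes. Pdgfrb, the receptor of platelet-derived growth factor on stellate cells, was at 11.3, 9.92 and 10.6 FPKM in the vehicle libraries and 39.9, 35.5 and 36.8 FPKM with CLK8+TGFb (log2 1.73, SE 0.064, limma adjusted p = 2.3e-16) and exceeded TGFb alone (26.4, 24 and 25.4 FPKM). Its ligand gene Pdgfb rose by 1.70 from 3.55, 3.57 and 3.38 to 13.7, 13.3 and 13.8 FPKM, below TGFb alone (24.4, 25.1 and 24.3 FPKM). Hbegf, an EGF receptor ligand gene, rose by 1.03, and Igfbp2, an IGF binding protein gene, fell by 1.60. Among 32 proliferation genes 17 were lower and 2 higher, or 13 and 6 on TPM, and 1 was higher when any of the 6 libraries was left out. Beside Ccnd1, falls were modest: Bub1b, a spindle checkpoint gene, by 0.50, Ccnb1, the cyclin B1 gene, by 0.48 and the chromatin protein gene Hmgb2 by 0.53. Of 18 p53 targets 7 rose (38.9%) and 3 fell (16.7%). Gadd45a, a stress-induced growth arrest gene, went from 10.01, 10.2 and 9.49 to 52.4, 51.03 and 52.8 FPKM (log2 2.28, SE 0.084, limma adjusted p = 2.3e-16). Plk2, a kinase gene, was higher by 1.43 and Pmaip1, the pro-apoptotic gene of NOXA, lower by 1.29. The cells of all groups were immortalized with SV40, whose large T antigen binds p53 and the retinoblastoma protein. Its part in the values of the proliferation and p53 lists was not tested.

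Whether the combination equalled the sum of its components on the log2 scale was tested by the interaction. The unstated culture time and the recorded length of CLK8 exposure limit this term too. The interaction was called for 900 of 11297 genes (7.97%), 517 higher (4.58%) and 383 lower (3.39%). The lower count was 251 without TGFb replicate 1 and 253 without vehicle replicate 3. Angptl7, a secreted angiopoietin-like gene, had the largest term in either direction (log2 2.32, SE 0.28, limma adjusted p = 1.66e-05). Its levels were 21.8, 23.2 and 24.96 FPKM with vehicle, 19.1, 21.02 and 21.3 FPKM with TGFb, 0.83, 1.58 and 1.35 FPKM with CLK8 and 7.82, 9.12 and 9.64 FPKM with both. Angptl7 was thus near vehicle with TGFb alone, and higher with both than with CLK8 alone. Igfbp7, an IGF binding protein gene that overlaps Polr2b, was also lowest with CLK8 alone, at 52.9 ± 1.67, 138 ± 7.55, 11.2 ± 1.86 and 79.4 ± 9.44 FPKM in the same order (interaction 1.35). Dlx2, a homeobox factor gene, was at 9.06 ± 0.727, 11.1 ± 0.344, 4.97 ± 0.144 and 17.9 ± 0.733 FPKM (interaction 1.39), so it was highest with both. Smad6, the inhibitory SMAD of the BMP branch, was at 17.8, 17.4 and 18.4 FPKM with vehicle and 9.48, 10.2 and 10.4 FPKM with both, and lowest with CLK8 alone at 7.79, 7.55 and 7.15 FPKM (interaction 1.23). Fxyd3, a sodium pump regulator gene, was listed at 0 in all 3 combination libraries and at 1.69, 4.04 and 3.91 FPKM with vehicle. The sign of its interaction was therefore fixed by the floor of the scale.

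Several of the largest terms below 0 belonged to genes that CLK8 alone had raised, such as Il33 above. Slpi, a secreted protease inhibitor gene, was at 47.7, 57.9 and 54.02 FPKM with vehicle, 25.2, 22.6 and 24.6 FPKM with TGFb, 216, 255 and 233 FPKM with CLK8 and 43, 45.3 and 54.4 FPKM with both (log2 -1.18, SE 0.18, limma adjusted p = 0.000183). Its combination libraries overlapped vehicle (log2 -0.16, 95% interval -0.42 to 0.10). Peg10, an imprinted retrotransposon-derived gene, was at 5.48 ± 1.11, 7.84 ± 0.881, 14.4 ± 1.72 and 7.74 ± 0.902 FPKM in the same order (interaction -1.28). Prg4, the lubricin gene, which overlaps Tpr, was likewise highest with CLK8 alone, at 7.63 ± 1.39, 2.16 ± 0.145, 49.9 ± 6.92 and 8.38 ± 1.62 FPKM (interaction -1.01), and the combination did not differ from vehicle beyond the spread (log2 0.12, 95% interval -0.26 to 0.49).

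Markers of mesothelial cells, which line the liver surface, moved with the treatment. The 9 markers summed to 553 to 572 FPKM with vehicle, 272 to 283 FPKM with TGFb, 235 to 279 FPKM with CLK8 and 127 to 149.7 FPKM with CLK8+TGFb. Of 8 tested, 6 fell and 2 rose. Upk3b had the largest share of the fall. Gpm6a, a membrane glycoprotein gene chosen after its values were seen, went from 175, 175 and 172 to 41.8, 48.3 and 47.2 FPKM, and Lrrn4, a leucine-rich repeat gene chosen likewise, from 32.7, 34.99 and 35.7 to 10.6, 13.4 and 11.6 FPKM. Wt1, a mesothelial transcription factor, fell from a mean of 27.3 to 17.2 FPKM, and Msln, the mesothelin gene, rose from 5.65 to 13.4 FPKM. The part of cells with these markers in the other results was not tested. The cholangiocyte list, whose sum rose from 34.1 to 36.8 to 83.2 to 94.3 FPKM, was carried by Spp1 (25.8 and 82.5 FPKM), the osteopontin gene, which stellate cells also express, while Epcam averaged 0.0867 and 0.22 FPKM.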

How the data were processed

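RNA was sequenced from EMS404 cells in 8 groups of 3 libraries, of which 4 groups were compared here. Per the labels' protocols, RNA came from either of 2 kits, with no statement of which library had which. The table deposited by the authors holds FPKM for 24 libraries in 16620 lines. HISAT2 2.0.4, Bowtie2 2.2.5, RSEM, DESeq2 and mm10 are named without roles in the submitters' processing notes. The 16 lines of 8 repeated identifiers were dropped, leaving 16604 genes. Symbols and positions came from the GENCODE M21 annotation of GRCm38 (43 identifiers had no symbol), and promoter windows from RefSeq.

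limma 3.58.1 (R 4.3.3) was run on log2(FPKM + 1), since FPKM are not counts, for the 11297 genes that reached 1 FPKM in 3 or more libraries. A single model with trend and robust moderation held all 8 groups and left 16 residual degrees of freedom. Tests were 2-sided with Benjamini-Hochberg adjustment over the genes of a comparison and a threshold of 0.05. Standard errors had a median of 0.064 for log2 changes and 0.090 for interactions. The fit was tested on simulated data. Tables and figures were made with Python 3.11.15, pandas 2.3.3, numpy 2.4.6 and matplotlib 3.10.9. Read depth is unknown and limits the precision of low values.

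The comparison, its 29 gene lists and 8 marker lists were chosen with earlier results of these data known. Named genes were the 15 largest called rises and falls whose libraries did not overlap, the 5 largest called in each direction against each component and for the interaction, up to 4 members of each list with the smallest adjusted p, and a fixed set that included Acta2, Col1a1 and the clock genes. A few genes that this rule names are not reported, and genes with predicted names were not named. Markers are described by their fixed lists. The alternatives tried were a pseudocount of 0.1 or 0.5, a filter of 5 FPKM or none, TPM, quantile normalization, no variance trend, fitting only the groups compared, the replicate number as a block, leaving out each library, and, added after seeing the data, leaving out the SR9011 groups.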

Additional observations from a re-analysis of the deposited data

Results flagged for a closer look

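The response to TGFb in the presence of CLK8 differed from the response in its absence, by the interaction test of limma, for 61 of the genes named in the report. The term was above 0 for 43 and below 0 for 18 of them on the log2(FPKM + 1) scale. A term above 0 can be a smaller fall: TGFb changed Id1 by -1.50 without and by -1.10 with CLK8. Likewise, a term below 0 can be a larger fall, as for Osgin1 (-1.23 without and -1.59 with CLK8). Here too, TGFb, time in culture and the length of CLK8 exposure cannot be told apart in the response with CLK8. The groups of 3 libraries are too small for a test of single outlying libraries. The share called over all genes was 7.97%, and the named genes were partly chosen for large interactions. For TGFb targets and feedback or SMAD genes, the difference of the log2 responses was 1.23 for Smad6, 1.18 for Smad7, 0.80 for Pmepa1, 0.59 for Ldlrad4, 0.45 for Smad9, 0.45 for Snai1, 0.41 for Ltbp3, 0.41 for Id1 and -0.88 for Vcan. For contractile, collagen and other matrix genes it was 1.20 for Tagln, 1.08 for Myl9, 0.88 for Acta2, 0.71 for Tgm2, 0.63 for Mmp3, 0.60 for Mmp2, 0.52 for Plat, 0.51 for Mylk, 0.49 for Col8a2, 0.44 for Itgb5, 0.42 for P4ha3, 0.39 for Col1a1, 0.26 for Col5a1 and 0.24 for Col5a2. For early response, clock and growth genes it was 1.35 for Igfbp7, 0.49 for Ajuba, 0.46 for Bhlhe41, 0.43 for Junb, 0.39 for Egr2, 0.34 for Ier2, 0.33 for Tsc22d3 and -0.26 for Tef. For cholesterol, glycolysis, lysosome and hypoxia genes it was 0.70 for Aldoc, 0.40 for Pfkfb3, -0.24 for Npc1, -0.42 for Pmvk, -0.44 for Epas1, -0.46 for Lss, -0.52 for Mvd and -0.67 for Hmgcs1. For inflammatory and xenobiotic response genes it was 0.75 for Ahr, 0.64 for Tiparp, 0.50 for Cyp1a1, 0.41 for Xdh, -0.36 for Osgin1, -0.39 for Il1rl1, -0.50 for Il6, -0.55 for Ptgs2 and -1.31 for Il33. Among the remaining genes the difference of the responses was 2.32 for Angptl7, 1.39 for Dlx2, 1.21 for Fxyd3, 0.76 for Serpind1, 0.66 for Fam210b, 0.52 for Kif26b, 0.51 for Ptprb, 0.45 for Wt1, -0.72 for Anxa8, -1.01 for Prg4, -1.16 for Ctsw, -1.18 for Slpi and -1.28 for Peg10. Acta2, Tagln and Smad7 had each been lowered by CLK8 alone, and Hmgcs1 had been near vehicle with either component. Fxyd3 was listed at 0 in all CLK8+TGFb libraries. For Fxyd3 and Serpind1, adding the component changes to vehicle gives a level below 0 on the log2(FPKM + 1) scale, which no library can reach. Their terms above 0 were thus fixed by this floor and do not describe a response. The causes were not tested.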

How the results depend on the processing

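Leaving out 1 library at a time gave 5524 to 5874 called genes for CLK8+TGFb against vehicle (2657 to 3012 higher and 2771 to 2882 lower), 3957 to 4068 against TGFb (2658 to 2821 and 1162 to 1370), 5222 to 5421 against CLK8 (1634 to 1880 and 3484 to 3756), 5418 to 5856 for TGFb against vehicle (1904 to 2239 and 3465 to 3617) and 4217 to 4558 for CLK8 against vehicle (2854 to 3247 and 1290 to 1387). The interaction gave 615 to 868 (362 to 476 and 251 to 392), with the lower count at 251 without TGFb replicate 1 and 253 without vehicle replicate 3. On TPM, CLK8+TGFb against CLK8 had 2972 higher and 2456 lower genes and the interaction 207 lower ones. Quantile normalization gave 2277 lower genes for CLK8+TGFb against TGFb. The other counts of called genes stayed within 1.5 times, but the split by direction moved. For TGFb against vehicle, 2311 higher and 3888 lower genes became 3068 and 3105 after quantile normalization. For CLK8 against vehicle, 3425 higher and 1534 lower became 2385 and 2197. Replicate numbers are shared by the groups, but the labels do not tie a number to a day or batch, and correlations of same-numbered libraries were not all over 0.1 for vehicle and CLK8+TGFb (0.23, -0.15 and 0.070). With the replicate number as a block, 6351 genes were called (3222 higher and 3129 lower). The block moved the count of higher proliferation genes from 2 to 1. Of 165 genes named and tested, 158 kept their direction and call under every alternative run. Uncalled values near 0 changed sign: leaving out 1 library gave -0.064 to 0.021 for Per1, -0.022 to 0.24 for Prg4, -0.040 to 0.040 for Rora and -0.024 to 0.039 for Smad7, TPM gave 0.078 for Per1 and quantile normalization -0.022 for Smad7. Peg10 lost its call against vehicle with a pseudocount of 0.1, no filter, quantile normalization, without the SR9011 groups, without any 1 of the CLK8+TGFb replicates and without vehicle replicate 2 or 3 (adjusted p 0.0524 to 0.153). Cry1 gained a call when only these groups were fitted (-0.14), after quantile normalization, without the SR9011 groups and without vehicle replicate 2. The causes were not tested. Depth is unknown, and values near 1 FPKM carry few reads.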

Other observations

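Cytosolic heat shock genes, which code for chaperones of unfolded proteins, were divided in CLK8+TGFb against vehicle, with 5 of 12 tested higher and 3 lower. These are 41.7% and 25%, against 27.9% and 27.4% of all genes. TPM and quantile normalization each left 1 lower, as did leaving out CLK8+TGFb replicate 2, and 3 were higher without CLK8+TGFb replicate 1 or vehicle replicate 3. Hsph1, a chaperone of the HSP110 family, went from 35.2, 30.5 and 29.8 to 52.5, 46.4 and 47.98 FPKM and Hspe1, a mitochondrial chaperonin gene whose exons overlap those of Hspd1, from 179, 169.8 and 164 to 217, 205 and 233 FPKM. Hspa1b, an inducible HSP70 gene, went the other way, from 22.8, 22.1 and 20.5 to 18.4, 15.8 and 16.5 FPKM, and the cochaperone gene Bag3 rose by 0.21.

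Values of the genes with the most distinct patterns are also available in the groups with SB431542, an inhibitor of the TGFb receptor kinase, and SR9011, an agonist of REV-ERB. Vcan was at 2.90, 2.17 and 2.19 FPKM with SB431542+TGFb and 14.1, 13.1 and 13.4 FPKM with SR9011+TGFb, both far below the 64.6, 65.2 and 60.3 FPKM with CLK8+TGFb. Acta2 was at 124, 112 and 101 and 209, 164 and 194 FPKM in the same groups, and Hmgcs1 at 76.8, 78.3 and 82.1 and 50.5, 46.6 and 48.8 FPKM. Cyp1b1 stood at 23.99, 22.6 and 22.99 and 48.2, 46.97 and 46.2 FPKM. Differences between CLK8+TGFb and these groups were not tested, and the labels state no doses of the compounds. Markers of portal fibroblasts, another source of liver matrix, summed to 534 to 559.6 FPKM with vehicle and 681 to 703 FPKM with CLK8+TGFb. The sum was carried by Fbln2, a fibulin gene (322 and 555 FPKM), and Cd34 (222 and 133 FPKM), while Thy1 averaged 0.02 and 0.0333 FPKM. Lymphocyte markers, of which 6 of 9 were in the table, summed to 0 to 0.05 FPKM with vehicle and 0.05 to 0.11 FPKM with CLK8+TGFb.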
